A study of Mus musculus with 20 samples.

Results

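The 10 genes described here encode apolipoproteins and MTTP, the lipid transfer protein that loads APOB: Apob, Mttp, Apoa1, Apoa2, Apoa4, Apoa5, Apoc1, Apoc2, Apoc3 and Apoe. They were chosen by symbol, as 10 of the 45802 gene entries in an expression table of mouse fetal liver, and all 10 passed the filter on low values that left 11807 genes for testing. Bulk RNA sequencing had been run on 20 fetal livers taken at stage E17.5 from C57BL/6 mice whose dams had gone without food for 24 h. There were 5 groups of 4 livers, each with 2 females and 2 males, and every dam was fasted, so no fed animals are compared.

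The first arm varied Ppara, which encodes PPARA, a nuclear receptor that turns on fatty acid oxidation genes in the fasted liver. Its control was heterozygous fetuses of heterozygous dams (HetDam_HetFetus), so even these animals carried a single working allele. In the other groups the dam was a Ppara knockout, and the fetus was either heterozygous (KODam_HetFetus) or itself a knockout (KODam_KOFetus). The second arm varied Cpt2, which encodes the mitochondrial enzyme that long-chain fatty acids need for oxidation. There, Cpt2f/f fetuses came from Cpt2f/f dams (FloxDam_FloxFetus) or from Cpt2f/f; Albumin-Cre dams (Cpt2LKODam_FloxFetus). Albumin-Cre acts in hepatocytes, so the deletion was in the liver of the dam, and the fetuses of both groups carried the floxed alleles without Cre. The titles call these fetuses WT, but the genotype labels were used for grouping. No tissue driver is given for the Ppara knockout, so its effect in the dam cannot be placed in the liver alone. Some fetuses share an unexplained number in their labels and may be littermates: KODam_HetFetus 1 and 2, KODam_KOFetus 1 and 2, and FloxDam_FloxFetus 3 and 4. The p-values then measure a spread that is partly within litters.

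Lipoproteins carry triglyceride and cholesterol through plasma, packed with apolipoproteins that give them structure, activate or hold back lipases, and bind receptors. In the liver, APOB is lipidated by MTTP as it enters the endoplasmic reticulum to form very-low-density lipoprotein, while APOA1 and APOA2 are the main proteins of high-density lipoprotein. The fetal liver already makes these proteins, alongside its role as the site of blood cell formation. Several of the genes are known PPARA targets in the adult liver, in a direction that can differ between species.

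The genes lie in 5 places of the genome (GRCm38.p6, RefSeq). Apoa1 (chr9:46228630-46230469), Apoc3 (chr9:46233050-46235636), Apoa4 (chr9:46240844-46243458) and Apoa5 (chr9:46268608-46271921) form one cluster. Apoc2 (chr7:19671579-19677941), Apoc1 (chr7:19689480-19692659) and Apoe (chr7:19696244-19701310) form another, with Apoc4 between Apoc2 and Apoc1. Apoa2 (chr1:171221564-171226379), Apob (chr12:7977629-8016839) and Mttp (chr3:138089855-138143418) stand alone. Some reads may be shared: Apoc2 overlaps the readthrough gene Gm44805 on the same strand, and Apoa4, Apoa5 and Mttp overlap genes on the opposite strand. The use of strand in counting is not given in the sources used here.

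Of the 10 genes, 8 have an entry in the RefSeq promoter table (GRCm38.p6), which does not hold Apoc1 or Apoc3. The bases before the transcription start were searched on both strands for AGGTCANAGGTCA, the direct repeat bound by PPAR and RXR heterodimers, and for CAAAGTNCA, the core of HNF4A sites. A pair of promoter stretches is shown, because they belong to the members with the closest match to each motif. Both run 5′ to 3′ on the strand of the gene, and capitals mark the matched motif.
Apoa4 (chr9:46240594-46240695, plus strand): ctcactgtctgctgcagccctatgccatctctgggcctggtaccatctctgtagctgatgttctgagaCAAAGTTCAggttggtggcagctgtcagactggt
Apoc2 (chr7:19677942-19678082, minus strand): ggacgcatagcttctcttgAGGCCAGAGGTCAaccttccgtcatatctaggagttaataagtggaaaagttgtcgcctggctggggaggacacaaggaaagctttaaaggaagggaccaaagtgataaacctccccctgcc
The Apoa4 match to CAAAGTNCA begins 182 bases before the start and has 0 mismatches. In the 250 bases before the start, 1.4% of 27025 genes hold such a match on either strand. The Apoc2 match to AGGTCANAGGTCA begins 122 bases before the start and has 1 mismatch in 12 fixed letters, which 0.566% of genes have or better. With up to 3 mismatches 23.7% of genes hold this motif, and so do 4 of the 8 members in the table: Apoa1, Apoa2, Apoc2 and Apoe. A match describes letters only, and binding was not measured.

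The values are log2 expression levels that had been quantile-normalised before deposit. The unit before the logarithm is not named and read depth is unknown, so levels are compared between libraries and not between genes. Across genes, the correlation between any pair of libraries was 0.904 to 0.982. Hepatocyte markers were high in every library, with a mean over 17 genes of 9.14 to 10.25. Mean markers of other tissues, with blanks read as the lowest value of the library, were raised in some libraries. The intestine mean was raised in 2 (HetDam_HetFetus 1 and 2) and the pancreas mean in 1 (Cpt2LKODam_FloxFetus 2). The skeletal muscle mean was raised in 2 (HetDam_HetFetus 4 and KODam_KOFetus 2) and the stomach mean in 2 (HetDam_HetFetus 1 and FloxDam_FloxFetus 4). Some of these means rested on low values. Only 3 of 12 intestine markers reached a linear value of 1 in HetDam_HetFetus 2. Of 9 stomach markers, 0 did in HetDam_HetFetus 1 and 1 in FloxDam_FloxFetus 4. Without the 6 libraries named HetDam_HetFetus keeps 1 library, which the fit assumes to vary like the others. Ppara RNA was 3.13 ± 0.281 (SD, n = 4) in HetDam_HetFetus and 2.26 ± 0.27 in KODam_KOFetus, and whether its reads fall in the deleted part is not known, so it does not check the labels. Differences below are log2 with their standard error, and a gene was called at a limma Benjamini-Hochberg adjusted p under 0.05 over all tested genes. Fewer hepatocytes and less RNA per hepatocyte cannot be told apart in such bulk samples.

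**Figure D1:**
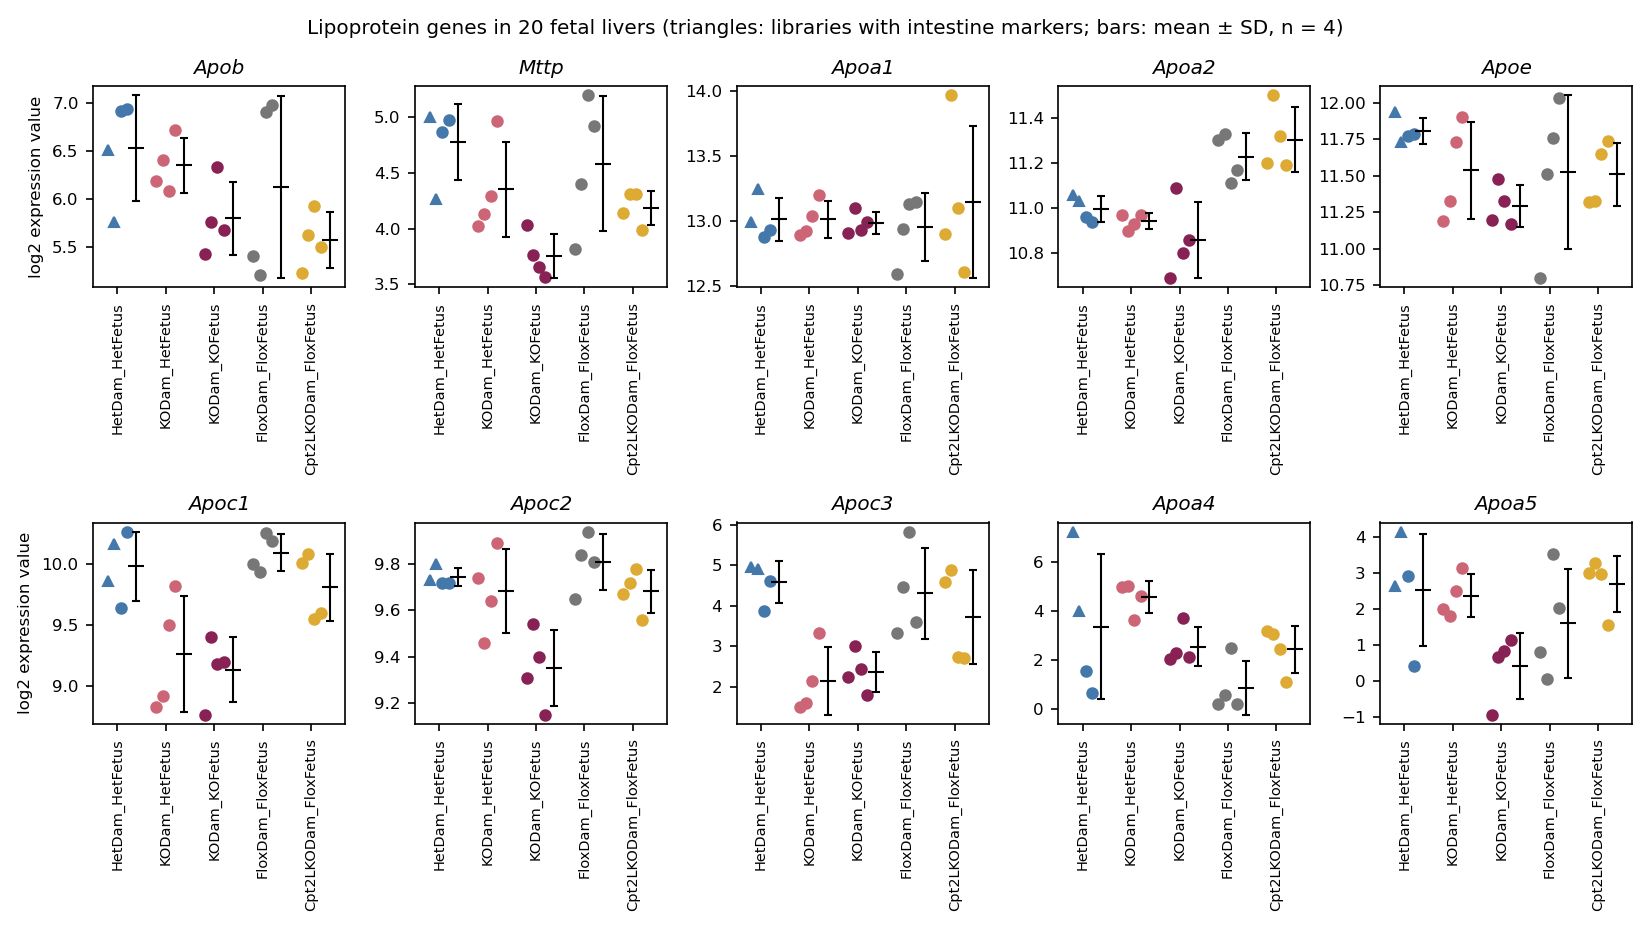
Log2 expression of each of the 10 genes (vertical axis) in the 20 libraries, by group (horizontal axis), with 1 symbol per liver, triangles for the libraries with intestine markers, and the mean ± SD (n = 4) beside each group. Apoc3 ran from 3.86 to 4.96 in HetDam_HetFetus against 1.51 to 3.33 in KODam_HetFetus, while Apoa1 stayed near 13.01 in both.

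Loss of Ppara in the dam was compared in fetuses of the same heterozygous genotype. Of the 10 genes, 2 fell, Apoc3 and Apoc1, and 0 rose. Over all tested genes 39.0% were called in this comparison, 12.6% lower and 26.4% higher. After trimmed-mean centring the calls over all genes were 1981 lower and 2541 higher, against 1483 and 3117 as deposited, and 2 of the 10 genes fell again. The median difference of the 10 genes was -0.18, against 0.14 over all tested genes.

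Apoc3, an inhibitor of lipoprotein lipase and of remnant uptake, stood at 4.96, 4.92, 3.86 and 4.60 in HetDam_HetFetus (replicates 1 to 4). It stood at 1.51, 1.61, 2.15 and 3.33 in KODam_HetFetus, so all 4 libraries lay below the lowest control. The fall was 2.43 ± 0.554 on the log2 scale, a 5.4-fold lower level (limma adjusted p = 0.00254). Apoc1, which inhibits cholesteryl ester transfer protein in humans and slows the uptake of remnants, stood at 9.86, 10.16, 9.64 and 10.26 in HetDam_HetFetus and at 8.83, 8.92, 9.50 and 9.82 in KODam_HetFetus. Replicates 1, 2 and 3 of KODam_HetFetus lay below every control and replicate 4 did not. Apoc1 fell by 0.71 ± 0.202 (adjusted p = 0.00996), a 1.64-fold lower level. Both calls were lost without replicates 1 and 2 of KODam_HetFetus, the presumed littermates: Apoc3 was then -1.84 (adjusted p = 0.0547) and Apoc1 -0.32 (adjusted p = 0.255). Without the 2 libraries with intestine markers Apoc1 was -0.68 and did not pass (adjusted p = 0.0574). Over 22 alternatives the adjusted p ran from 0.00169 to 0.232 for Apoc3 and from 0.00252 to 0.496 for Apoc1.

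Replicates 1 and 2 of KODam_HetFetus were the lowest of their group for several of these genes. Apoe, the ligand for remnant receptors, stood at 11.19 and 11.33 in replicates 1 and 2, and at 11.73 and 11.90 in replicates 3 and 4. Mttp stood at 4.02, 4.13, 4.29 and 4.97. Mean hepatocyte markers were 9.50 and 9.48 in replicates 1 and 2, and 9.84 and 10.06 in replicates 3 and 4, against 9.89 to 10.06 in HetDam_HetFetus. Of the 17 hepatocyte markers 2 fell and 1 rose in the maternal comparison, 3 fell and 1 rose after trimmed-mean centring, and 0 passed without replicates 1 and 2. Over all tested genes 523 of 11797 were called lower and 2322 higher without those replicates. The part of the hepatocyte markers in the falls of Apoc1 and Apoc3 was not tested.

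Apob and Mttp, which act in the assembly of very-low-density lipoprotein, did not pass, nor did Apoe. Apob, the backbone protein of these particles, stood at 6.51, 5.76, 6.91 and 6.94 in HetDam_HetFetus and at 6.19, 6.41, 6.08 and 6.72 in KODam_HetFetus, overlapping ranges that differed by -0.18 ± 0.35 (adjusted p = 0.709). Mttp stood at 5.00, 4.27, 4.87 and 4.98 in HetDam_HetFetus, and the difference of the maternal comparison was -0.42 ± 0.248 (adjusted p = 0.184). Apoe stood at 11.94, 11.73, 11.77 and 11.79 in HetDam_HetFetus and differed by -0.27 ± 0.202 (adjusted p = 0.295). None of these 3 results shows equality: the 95% interval for Mttp ran from -0.94 to 0.10.

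Apoa1, Apoa2 and Apoc2 did not pass either, and Apoa2 and Apoc2 had the smallest spread within groups of the 10. Apoa1, which accepts cholesterol from cells and activates LCAT, stood at 12.99, 13.25, 12.88 and 12.93 in HetDam_HetFetus and at 12.89, 12.92, 13.04 and 13.20 in KODam_HetFetus. Its difference was 0.00 with a 95% interval of -0.42 to 0.42, and -0.08 or -0.09 under other scalings. Apoa2, the second protein of these particles, ran from 10.94 to 11.06 in HetDam_HetFetus and from 10.90 to 10.97 in KODam_HetFetus, a difference of -0.05 ± 0.0956 (adjusted p = 0.674). Apoc2, the activator of lipoprotein lipase, stood at 9.73, 9.80, 9.72 and 9.72 in HetDam_HetFetus and at 9.74, 9.46, 9.64 and 9.89 in KODam_HetFetus. It differed by -0.06 ± 0.102 (adjusted p = 0.667). The SD pooled within groups was 0.114 for Apoa2 and 0.13 for Apoc2, larger than in 2.33% and 4.74% of tested genes.

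Apoa4 and Apoa5 were the most variable. Apoa4, an apolipoprotein of chylomicrons that the intestine also makes, stood at 7.22, 4.00, 1.56 and 0.67 in HetDam_HetFetus. In KODam_HetFetus it stood at 4.96, 5.02, 3.62 and 4.60, which all lay above replicates 3 and 4 of the control and below replicate 1. The difference was 1.19 ± 0.965 (adjusted p = 0.343). The pooled SD of Apoa4 was 1.53, larger than that of 99.7% of tested genes.

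The order of the Apoa4 values in HetDam_HetFetus was also that of the intestine markers. The mean of 12 intestine markers was 1.44 in replicate 1 and -2.75 in replicate 2, which is 6.75 and 2.56 above the median of the 20 libraries. In replicate 1, 10 of the 12 markers reached a linear value of 1. Among them Fabp2, the intestinal fatty acid binding protein, stood at 5.72 on the log2 scale. In the 18 libraries other than replicates 1 and 2 it ran from 0.57 to 3.35. Replicate 2, with Fabp2 at 3.00, lay inside that range, and 3 of its 12 markers reached a linear value of 1. Alpi, intestinal alkaline phosphatase, stood at 3.03 in replicate 1, and Cdx1 and Cdx2, transcription factors of the intestine, at 0.92 and 0.41. Cdx1 had no value in 14 of those 18 libraries and Cdx2 in 15. The mean of the 12 markers ran from -5.43 to -3.87 over the 4 KODam_HetFetus libraries, where Apoa4 stood at 3.62 to 5.02. Only 3 intestine markers passed the filter on low values. Their median maternal difference was -0.24, with 0 called. Without replicates 1 and 2 of HetDam_HetFetus it was 1.41, with 1 called higher. Of the 3, 1 was called lower in KODam_KOFetus than in KODam_HetFetus (median difference -0.79). The part of intestine markers in these Apoa4 values was not tested. Without replicate 1 of HetDam_HetFetus, Apoa4 was higher in KODam_HetFetus by 2.47 (adjusted p = 0.0131), and without replicates 1 and 2, an alternative added after seeing the data, by 3.44 (adjusted p = 0.00221). Over 22 alternatives its adjusted p ran from 0.00221 to 0.828.

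**Figure D2:**
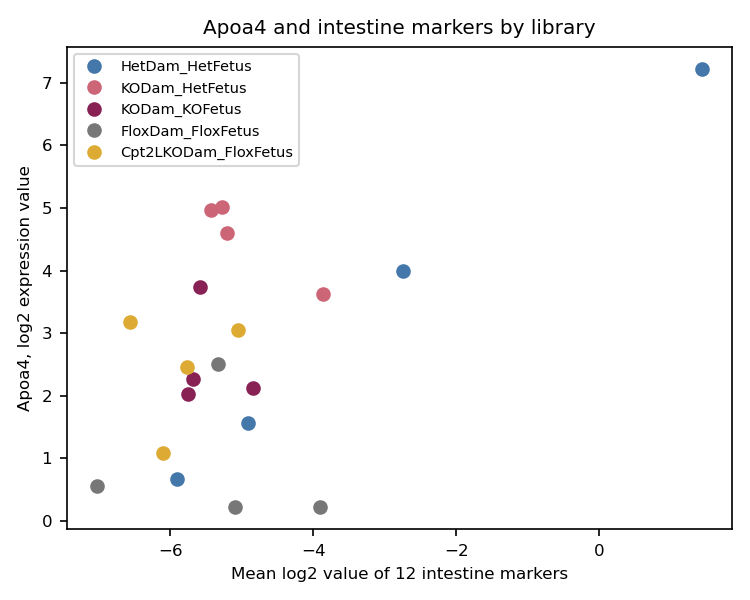
Apoa4 log2 expression (vertical axis) against the mean log2 value of 12 intestine markers (horizontal axis), 1 point per library, coloured by group. HetDam_HetFetus replicate 1, at 1.44 and 7.22, stands far to the upper right, and the 4 KODam_HetFetus libraries have Apoa4 of 3.62 to 5.02 at marker means of -5.43 to -3.87.

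Apoa5, which promotes triglyceride hydrolysis by lipoprotein lipase, stood at 2.65, 4.15, 2.93 and 0.42 in HetDam_HetFetus and at 2.00, 1.81, 2.50 and 3.15 in KODam_HetFetus. The ranges overlapped throughout, and the difference of -0.17 ± 0.721 (adjusted p = 0.871) turned positive without replicate 2 of HetDam_HetFetus (0.37) or replicate 2 of KODam_HetFetus (0.01).

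Loss of Ppara in the fetus was compared between fetuses of knockout dams. No label number is shared between KODam_HetFetus and KODam_KOFetus, so fetal genotype cannot be told apart from presumed litter and dam. KODam_HetFetus also enters the maternal comparison, with the opposite sign. None of the 10 genes passed limma, where 0.822% of tested genes were called, 97 of 11805. At an unadjusted p under 0.05 there were 3 of the 10, Apoa5, Mttp and Apoc2, against 10.9% of tested genes. Of the 10 differences 9 were negative, against 52.5% over all tested genes, and their median was -0.29.

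Apoa5 stood at -0.94, 0.66, 0.82 and 1.13 in KODam_KOFetus. All 4 values lay below the 4 of KODam_HetFetus (1.81 to 3.15), and the difference was -1.95 ± 0.721 (adjusted p = 0.364). Mttp stood at 4.03, 3.76, 3.66 and 3.57 in KODam_KOFetus, where replicate 1 alone reached the range of KODam_HetFetus. The Mttp difference between these groups was -0.60 ± 0.248 (adjusted p = 0.41). Apoc2 stood at 9.31, 9.54, 9.40 and 9.15, with replicate 2 inside the range of KODam_HetFetus, and differed by -0.33 ± 0.102 (adjusted p = 0.222). Apoa4 stood at 2.03, 2.27, 3.73 and 2.13, and replicate 3 alone reached the KODam_HetFetus range. The Apoa4 difference was -2.01 ± 0.965 (adjusted p = 0.46), and the 95% interval ran from -4.03 to 0.01. Apoc3 stood at 2.24, 3.00, 2.45 and 1.79 in KODam_KOFetus, within the range of KODam_HetFetus, with a difference of 0.22 ± 0.554 (adjusted p = 0.909) that was -0.37 without the presumed littermates of KODam_HetFetus. The other 5 genes, Apob, Apoe, Apoc1, Apoa2 and Apoa1, differed by -0.55 to -0.03, with adjusted p-values of 0.578 to 0.97.

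The 2 Ppara changes together were compared as KODam_KOFetus against HetDam_HetFetus. Of the 10 genes 5 fell, Mttp, Apoc1, Apoc3, Apoc2 and Apoa5, and 0 rose, where 24.7% of all tested genes were called, 7.31% lower and 17.4% higher. After trimmed-mean centring the calls over all genes were 1189 lower and 1560 higher, against 863 and 2053 as deposited. All 10 differences were negative, also under both other scalings, against 37.7% of all tested genes, and the median was -0.78 against 0.14. This comparison shares HetDam_HetFetus with the maternal one and KODam_KOFetus with the fetal one, so its values are no separate evidence.

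Mttp, the loading protein, fell by 1.02 ± 0.248 (adjusted p = 0.0071), a 2.03-fold lower level. Its KODam_KOFetus values of 3.57 to 4.03 all lay below the HetDam_HetFetus values of 4.27 to 5.00. Apoc3 fell by 2.21 ± 0.554 (adjusted p = 0.00854) and Apoc1, at 8.77, 9.40, 9.18 and 9.20 in KODam_KOFetus, by 0.84 ± 0.202 (adjusted p = 0.00644). For both genes the groups did not overlap. Apoc2 fell by 0.39 ± 0.102 (adjusted p = 0.0105), also without overlap, a small change in a gene whose libraries vary little. Apoa5 fell by 2.12 ± 0.721 (adjusted p = 0.0385), but replicate 4 of HetDam_HetFetus, at 0.42, lay within the KODam_KOFetus range.

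The Apoa5 call was the least secure: it was lost under 11 of 22 alternatives, 5 of which left out 1 library each. It stood at -2.08, -1.58 and -1.99 without HetDam_HetFetus replicate 1, 2 or 3 (adjusted p = 0.0685, 0.128 and 0.0851), and at -1.67 and -2.25 without KODam_KOFetus replicate 1 or 3 (adjusted p = 0.122 and 0.0557). It was also lost with presumed litter as a random block (adjusted p = 0.0798) and without the presumed littermates of KODam_KOFetus, at -1.56 (adjusted p = 0.207). With only the groups compared in the fit, or with no filter on low values, its adjusted p was 0.0599 or 0.0525. Its adjusted p ran from 0.00961 to 0.299 over all 22. Without the 2 libraries with intestine markers, 2 of the 5 calls were made, where 687 of 11781 genes were called lower and 1597 higher. Apoc2, Apoc3 and Apoa5 were then at -0.37, -1.86 and -1.26 (adjusted p = 0.056, 0.0729 and 0.299). Without all 6 libraries with markers of neighbouring tissues 0 were made, with Mttp at -1.11 and Apoc3 at -1.70 (adjusted p = 0.161 and 0.294), where 268 of 11748 genes were called in all.

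Apoe stood at 11.20, 11.48, 11.33 and 11.17 in KODam_KOFetus, all below the lowest control of 11.73, but did not pass (-0.51 ± 0.202, adjusted p = 0.0687). It passed under 4 alternatives, with adjusted p-values of 0.031 and 0.0427 under the other scalings and 0.00909 when only the groups compared were fitted, within a range of 0.00909 to 0.369. Apob stood at 5.43, 5.76, 6.33 and 5.68 in KODam_KOFetus, overlapping the control, with a difference of -0.73 ± 0.35 (adjusted p = 0.13). Apoa4 differed by -0.82 ± 0.965 (adjusted p = 0.553), a sign set by 1 library, since it was 0.46 without HetDam_HetFetus replicate 1. Apoa2, at 10.69, 11.09, 10.80 and 10.86, differed by -0.14 ± 0.0956 (adjusted p = 0.3). Apoa1, at 12.91, 13.10, 12.93 and 12.99, differed by -0.03 ± 0.202 (adjusted p = 0.934).

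Markers of blood-forming cells also differed between these groups. The mean of 13 erythroid markers was 9.13 to 9.41 in HetDam_HetFetus, 9.48 to 9.70 in KODam_HetFetus and 9.53 to 10.05 in KODam_KOFetus, so both knockout-dam groups lay above the control. The mean of 10 neutrophil markers was 7.27 to 7.53 in HetDam_HetFetus, 6.30 to 6.89 in KODam_HetFetus and 6.53 to 7.24 in KODam_KOFetus, below the control in both. Hepatocyte markers were 9.56 to 10.06 in KODam_KOFetus, and 1 of the 17 rose and 0 fell in the combined comparison. After trimmed-mean centring 0 of these markers rose and 3 fell, and after quantile normalisation of the tested genes 0 rose and 1 fell. The part of these cell markers in the falls of the 5 genes was not tested.

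**Figure D3:**
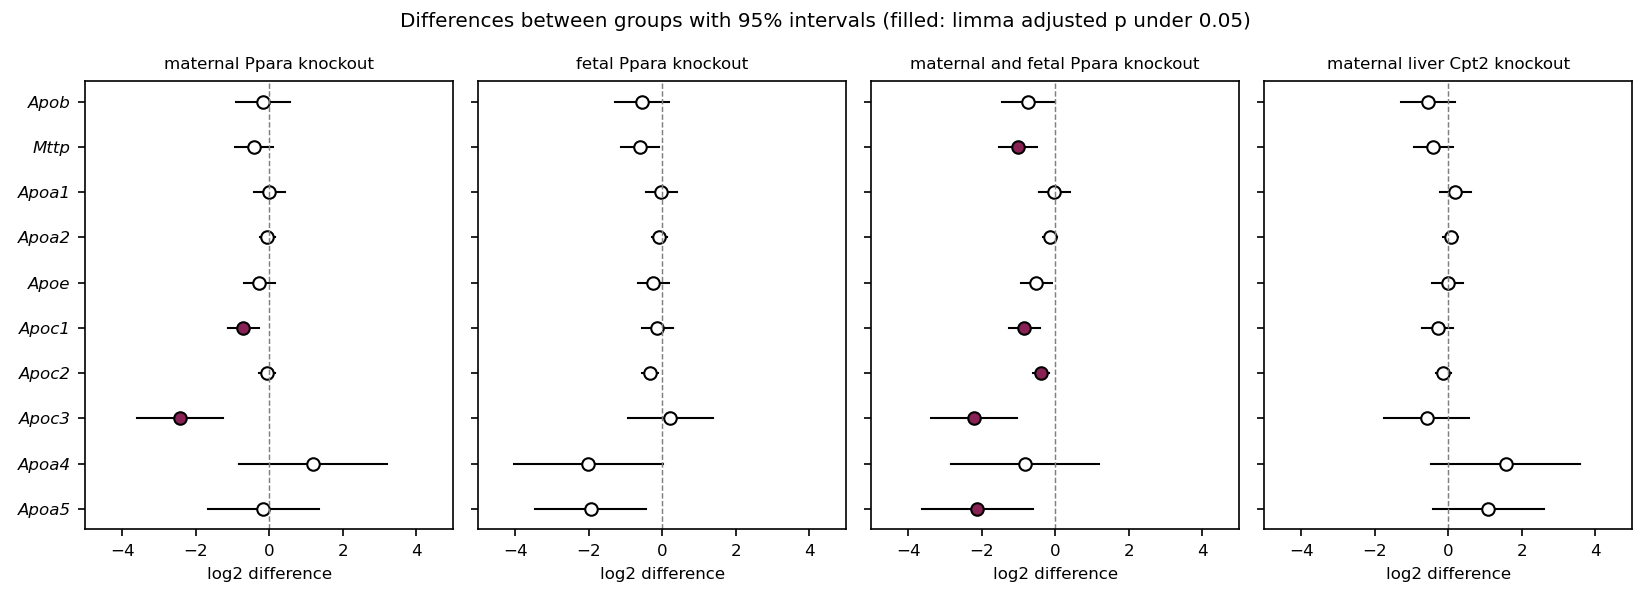
Log2 differences of the 10 genes (horizontal axis) in 4 comparisons, with 95% intervals, where filled points passed a limma adjusted p under 0.05. Filled points number 2 for the maternal Ppara knockout, 0 for the fetal, 5 for both and 0 for the maternal liver Cpt2 knockout.

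Loss of Cpt2 in the liver of the dam was compared in floxed fetuses. None of the 10 genes passed limma, nor did any of the 11805 genes tested (background 0%). At an unadjusted p under 0.05 there were 1311 genes, 11.1%, and 0 of the 10. The median difference of the 10 genes was -0.07.

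Apoa4 stood at 0.23, 0.56, 2.51 and 0.22 in FloxDam_FloxFetus, low in all but replicate 3, and at 3.17, 3.05, 2.46 and 1.09 in Cpt2LKODam_FloxFetus. Replicates 1 and 2 of the latter lay above every control, and the difference was 1.56 ± 0.965 (adjusted p = 0.554), with a 95% interval of -0.46 to 3.58. Mean intestine markers were low in both groups, at -7.03 to -3.90 and -6.56 to -5.06. Apoa5 stood at 0.81, 0.05, 3.52 and 2.03 in FloxDam_FloxFetus and at 2.99, 3.29, 2.97 and 1.55 in Cpt2LKODam_FloxFetus, overlapping values that differed by 1.09 ± 0.721 (adjusted p = 0.586).

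The floxed controls were split in the very-low-density lipoprotein genes. Apob stood at 5.41 and 5.21 in replicates 1 and 2 of FloxDam_FloxFetus, and at 6.90 and 6.98 in replicates 3 and 4, the presumed littermates. Apoe stood at 10.80, 11.51, 11.76 and 12.03 and Mttp at 3.82, 4.40, 5.20 and 4.92, again higher in replicates 3 and 4. Mean hepatocyte markers were 9.14 and 9.50 in replicates 1 and 2 against 10.25 and 10.10 in replicates 3 and 4, and their part in the split was not tested. In Cpt2LKODam_FloxFetus Apob stood at 5.23, 5.63, 5.93 and 5.50, within the range of the control, and differed by -0.55 ± 0.35 (adjusted p = 0.564). Without replicates 3 and 4 of the control the Apob difference was 0.26. Mttp, at 4.14, 4.31, 4.31 and 3.99, differed by -0.40 ± 0.248 (adjusted p = 0.559), and by 0.08 without those libraries.

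Apoc3 stood at 3.32, 4.47, 5.83 and 3.60 in FloxDam_FloxFetus and at 4.58, 4.88, 2.73 and 2.72 in Cpt2LKODam_FloxFetus, wide ranges that overlapped (-0.58 ± 0.554, adjusted p = 0.725). Apoc1 stood at 9.93 to 10.25 and 9.55 to 10.08 in the same order, and Apoc2 at 9.65 to 9.94 and 9.56 to 9.78, with differences of -0.28 ± 0.202 and -0.13 ± 0.102. Apoe, at 11.32, 11.33, 11.65 and 11.74 in Cpt2LKODam_FloxFetus, differed by -0.01 ± 0.202. Apoa2 ran from 11.11 to 11.33 and from 11.19 to 11.50, a difference of 0.07 ± 0.0956. Apoa1 stood at 12.90, 13.97, 13.10 and 12.61 in Cpt2LKODam_FloxFetus, the highest of them being replicate 2, the library with pancreas markers. Its difference was 0.19 ± 0.202, and -0.08 without that library.

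The maternal effects were also set against each other. None of the 10 genes passed limma for the difference between the maternal Ppara and the maternal Cpt2 effect, and 0 of 11798 genes did (background 0%), with 2343 genes (19.9%) at an unadjusted p under 0.05. Apoc3 was the only member among these, with a difference of -1.85 ± 0.783 between the effects, lower in the Ppara arm (unadjusted p = 0.0286, adjusted p = 0.206, two-sided limma test). A difference between the effects of the dams on Apoc3 was not shown at the threshold. The control groups, HetDam_HetFetus against FloxDam_FloxFetus, differed in none of the 10 genes by limma, where 0.136% of genes were called, 16 of 11800. At an unadjusted p under 0.05 there were 2 of the 10, Apoa2 at -0.23 ± 0.0956 and Apoa4 at 2.48 ± 0.965 (adjusted p = 0.244 and 0.227), against 16.5% of tested genes. All 4 Apoa2 values of HetDam_HetFetus lay below the 4 of FloxDam_FloxFetus.

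**Figure D4:**
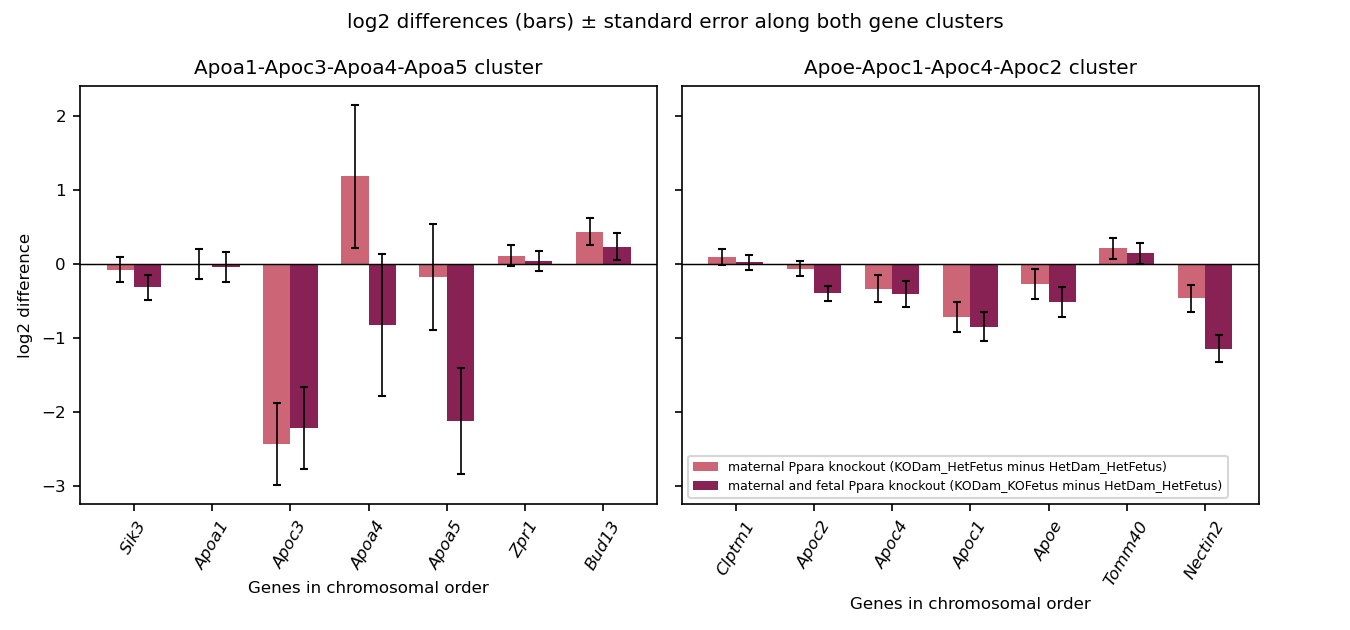
Log2 differences (vertical axis, bars with standard errors) of the tested genes of both apolipoprotein clusters and their neighbours, in chromosomal order, for the maternal and for the combined Ppara knockout. In the Apoa1 cluster Apoc3 has bars of -2.43 and -2.21 beside Apoa1 at 0.00 and -0.03.

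Differences between neighbouring genes of a cluster were not tested, and their values stand side by side here. In the chromosome 9 cluster the maternal differences were 0.00 for Apoa1, -2.43 for Apoc3, 1.19 for Apoa4 and -0.17 for Apoa5. The combined differences there were all negative, at -0.03, -2.21, -0.82 and -2.12 in the same order. The genes on either side, Sik3, Zpr1 and Bud13, were at -0.07, 0.12 and 0.44 in the maternal comparison and did not pass. In the chromosome 7 cluster the combined differences were -0.39 for Apoc2, -0.40 for Apoc4 (adjusted p = 0.114), -0.84 for Apoc1 and -0.51 for Apoe. Beside Apoe, Tomm40 was at 0.15 (adjusted p = 0.464), while Nectin2, a cell adhesion gene, fell by 1.14 ± 0.18 (adjusted p = 5.09e-04). The neighbours were all tested genes within 50000 bases of a cluster, a rule added after the members' values were seen. The table also has an entry for readthrough RNA of Apoc4 and Apoc2, at 3.50, 4.02, 1.72 and 2.71 in HetDam_HetFetus and 5.03, 4.50, 5.14 and 4.41 in KODam_HetFetus. Its 4 values in KODam_HetFetus all lay above the control, while those of Apoc2 itself overlapped. In KODam_KOFetus the readthrough entry stood at 3.14, 3.90, 4.59 and 4.87, which overlapped the control. It stood at 3.87, 4.05, 4.10 and 3.46 in FloxDam_FloxFetus and at 3.78, 4.00, 4.50 and 5.29 in Cpt2LKODam_FloxFetus.

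Across the 20 libraries some members moved together. Pearson's r was 0.87 for Apoc1 and Apoc3, 0.77 for Apoe and Mttp and 0.71 for Apob and Mttp. After subtracting the group means the same pairs had r of 0.68, 0.72 and 0.70, so these likenesses were also present among livers of the same genotype. Apoa1 and Apob, the main proteins of high-density and very-low-density lipoprotein, had r of 0.09. The genes most like Mttp were Cdh1 (r = 0.904), the epithelial cadherin, Atrn (0.869) and Sort1 (0.865), a sorting receptor that binds APOB. Those most like Apoa4 were Epcam (0.623), an epithelial adhesion gene, Slc44a2 (0.616), Tnip1 (0.603), Tap2 (0.587) and Fabp2 (0.581), the intestine marker above. The mean of the 10 genes was most like Ecm1 (0.795), Tbc1d8 (0.781) and Fcgrt (0.780), then Scarb1 (0.775), the receptor for high-density lipoprotein. The livers share group, scaling and tissue makeup, so these r are descriptions over 20 libraries.

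Genes that work with the 10 were counted by role. Over all tested genes the maternal Ppara comparison called 12.6% lower and 26.4% higher. The combined one called 7.31% lower and 17.4% higher, and the fetal one 0.822% in either direction. Without the presumed littermates of KODam_HetFetus, 523 of 11797 genes were called lower in the maternal comparison. Without those of KODam_KOFetus, 880 of 11796 were called lower in the combined one. Of 18 assembly and secretion partners, all tested, 3 fell and 1 rose in the maternal Ppara comparison, and 2 fell in the combined one. After trimmed-mean centring 4 fell in each. Cideb, which helps to lipidate very-low-density lipoprotein, fell from 5.93 to 6.17 in HetDam_HetFetus to 4.22 to 5.00 in KODam_HetFetus and 3.77 to 4.82 in KODam_KOFetus, without overlap. These falls were 1.49 ± 0.243 (adjusted p = 3.07e-04) and 1.77 ± 0.243 (adjusted p = 1.70e-04). Sort1 fell by 0.73 ± 0.186 and 0.78 ± 0.186 (adjusted p = 0.00532 and 0.00639). Without the presumed littermates of KODam_HetFetus 1 of the 18 fell in the maternal comparison, and Sort1 was -0.63 (adjusted p = 0.0597).

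Of 11 genes tested from 17 listed as other apolipoproteins, 6 fell in the maternal and 4 in the combined comparison, and 0 rose. The 6 included Apobr, which encodes a receptor for APOB and not an apolipoprotein. Saa4, a serum amyloid A carried on high-density lipoprotein, fell by 1.52 ± 0.338 in the maternal comparison (adjusted p = 0.0022). Apof, an inhibitor of lipid transfer in humans, fell by 0.97 ± 0.248 and by 1.17 ± 0.248 in the combined one (adjusted p = 0.00544 and 0.00327). Apol7a fell by 1.66 ± 0.262 in the combined comparison (adjusted p = 5.09e-04). Without replicates 1 and 2 of KODam_HetFetus, 1 of these 11 genes fell in the maternal comparison and Apof was -0.54 (adjusted p = 0.144). Without the libraries with intestine markers 3 fell in the maternal and 2 in the combined comparison.

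Of 17 receptor and clearance genes tested, 3 fell and 1 rose in the maternal comparison and 6 fell in the combined one, with Lrp1, a remnant receptor, lower by 1.39 ± 0.311 (adjusted p = 0.00429). In the maternal comparison 6 fell and 1 rose after trimmed-mean centring, and 1 fell and 1 rose without the presumed littermates of KODam_HetFetus. Without the presumed littermates of KODam_KOFetus, 1 of the 17 fell in the combined comparison, and Lrp1 was -1.07 (adjusted p = 0.0529). Of 12 genes of high-density lipoprotein formation, 1 fell and 1 rose in the maternal comparison, and 6 fell and 1 rose in the combined one. The maternal count was 4 lower and 1 higher after trimmed-mean centring, 3 lower and 1 higher after quantile normalisation, and 0 lower and 1 higher without the presumed littermates of KODam_HetFetus. Without the presumed littermates of KODam_KOFetus 0 of these 12 fell and 1 rose. Scarb1, at -0.67 ± 0.182 (adjusted p = 0.0134), was then -0.51 (adjusted p = 0.1).

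Of 16 genes of triglyceride and cholesteryl ester synthesis, 6 fell and 2 rose in the maternal comparison and 7 fell in the combined one. Dgat2, the last step of triglyceride synthesis, fell by 0.89 ± 0.164 (adjusted p = 6.24e-04) and 0.93 ± 0.164 (adjusted p = 0.00104), and passed under each of 22 alternatives in both comparisons. Pemt, which makes the phosphatidylcholine of the particle surface, fell by 2.00 ± 0.397 in the maternal comparison (adjusted p = 0.00106) and fell by 1.94 ± 0.397 in the combined one (adjusted p = 0.00257). Gpam, the first step of glycerolipid synthesis, fell by 1.34 ± 0.279 in the combined comparison (adjusted p = 0.00275). Lpcat3, which remodels phospholipids, rose by 0.69 ± 0.108 with loss in the dam (adjusted p = 2.28e-04) and fell by 1.03 ± 0.108 with loss in the fetus (adjusted p = 7.96e-06). Both Lpcat3 differences use KODam_HetFetus, with opposite signs, so they are not separate evidence.

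Of 25 transcriptional regulators of the 10 genes, 6 fell and 2 rose in the maternal comparison and 9 fell and 1 rose in the combined one. Cebpa, a hepatocyte transcription factor, fell by 1.88 ± 0.287 (adjusted p = 2.06e-04) and 1.52 ± 0.287 (adjusted p = 0.00156). Nr1h3, which encodes the sterol sensor LXR alpha, fell by 1.72 ± 0.305 in the maternal comparison (adjusted p = 4.90e-04), and Foxa3 by 1.56 ± 0.275 (adjusted p = 4.90e-04). Creb3l3, a transcription factor known to act on Apoa4, Apoa5 and Apoc2 in mice, stood at 5.70 to 5.97 in HetDam_HetFetus, 5.78 to 6.64 in KODam_HetFetus and 4.09 to 4.43 in KODam_KOFetus. It fell by 1.96 ± 0.168 with loss in the fetus (adjusted p = 6.84e-07) and passed under each of 22 alternatives. With loss in the dam it was at 0.36 ± 0.168 (adjusted p = 0.0929). Lpcat3 and Creb3l3 were the only genes of these 6 lists that passed for the fetal Ppara knockout. In the maternal Cpt2 comparison 0 genes of the 6 lists passed.

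Without the 6 libraries with markers of neighbouring tissues, the genes that fell in the maternal comparison numbered 0 assembly partners, 0 other apolipoproteins, 0 receptors, 1 of high-density lipoprotein formation, 1 of triglyceride synthesis and 2 regulators. In the combined comparison they numbered 1, 0, 0, 1, 2 and 1, in a fit with 1 library left in HetDam_HetFetus. Over all genes the same fit called 106 lower of 11749 in the maternal comparison (5.29% in either direction) and 83 lower of 11748 in the combined one (2.28%).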

How the data were processed

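RNA from 20 fetal livers (E17.5, dams fasted for 24 h) was sequenced from poly(A) libraries, per the labels' protocols. The submitters' processing notes name bcl2fastq 2.17.1.14, Partek 7.0 and build GRCm38.p6, with the aligner and counting rule not given in the sources used here. The authors deposited log2 values for 45802 entries. Every library holds the same quantiles, so quantile normalisation preceded deposit, which removes differences in total level between libraries. Reads could not be recovered from these values, so depth and the precision it gives are unknown and no count test was run. Blanks were read as no value in the tests, and as the lowest value of the library in the marker means.

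Genes with a linear value of at least 1 in at least 4 libraries were tested, 11807 in all, in one limma 3.58.1 fit (R 4.3.3) with a mean per group and a mean-variance trend. Tests were two-sided, with Benjamini-Hochberg adjustment over the genes of a comparison, and the fit was tested on simulated data. Alternatives changed the pseudocount, minimum, scaling, fit, covariates, presumed litter and libraries. Tissue markers counted as raised at 2 log2 units above the median library. Scaling moved the split of calls over all genes: for the maternal Ppara knockout 67.8% of calls were higher as deposited, against 56.2% after trimmed-mean centring and 55% after quantile normalisation of the tested genes, and for both knockouts 70.4%, 56.7% and 55.9%. The median of all genes was 0.14 as deposited and 0.05 to 0.08 after either. All 10 members were named, with up to 4 called genes of smallest p per partner list and comparison, of which the text gives part and 1 is not reported here, and the 5 genes most correlated with Apoa4, Mttp and the mean of the members. The members and lists were chosen with earlier results of these data known.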

Additional observations from a re-analysis of the deposited data

Results flagged for a closer look

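In 3 of 50 sets of 4 libraries (10 genes in 5 groups) 1 library stood far from the others by Dixon's test, where chance flags about 1 in 20. Apoa4 stood at 3.73 in KODam_KOFetus replicate 3, with the next library at 2.27. Apoa4 also stood at 2.51 in FloxDam_FloxFetus replicate 3, with the next at 0.56. Apoc2 stood at 9.80 in HetDam_HetFetus replicate 2, with the next at 9.73, a gap of a tightly grouped gene.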

How the results depend on the processing

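Counts of the 10 genes called were within 1.5 times the main count under most alternatives. Without the presumed littermates of KODam_HetFetus 0 passed for the maternal Ppara knockout, where 523 of 11797 tested genes were called lower and 2322 higher. Without the libraries with neighbouring-tissue markers 0 passed there and 0 for both knockouts, with fewer libraries in the fit. Without the libraries with intestine markers, added after seeing the data, 2 passed for both. Over all tested genes 687 of 11781 were then called lower and 1597 higher. For the maternal Ppara knockout 2 also passed there, but they were Apoa4, higher at 3.44, and Apoc3, lower, while Apoc1 did not pass (-0.68, adjusted p = 0.0574). In that maternal comparison 986 of 11781 tested genes were called lower and 2295 higher. Without the presumed littermates of FloxDam_FloxFetus 1 passed for the control groups, Apob at 1.22 (adjusted p = 0.0328, range 0.0328 to 0.912). Leaving out 1 library at a time gave 2 to 3 calls for the maternal Ppara knockout, 4 to 5 for both, and 0 for each of the others.

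Same-numbered libraries of different groups had deviations that correlated at -0.378 to 0.482 (median 0.0677, 16 of 40 pairs over 0.1). Presumed littermates had 0.212, -0.0925 and 0.323. Those pairs lie within a group and the same-numbered ones between groups, so the range of one is no yardstick for the other. Whether the numbers pair the samples was not decided. With the replicate block 2 genes passed for the maternal Ppara knockout and 6 for both, the added gene being Apoe at -0.51 (adjusted p = 0.0408), and 0 for the others. The consensus correlation of presumed littermates was 0.566.

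The changes of sign that follow were in genes that had not passed, and their cause was not tested. After trimmed-mean centring Apoa1 was -0.08 for the maternal Ppara knockout, Apoe 0.00 for the maternal Cpt2 knockout, Apoc2 -0.03 for the difference of the maternal effects, and Apoc1 0.00 and Apoc2 0.05 for the control groups. After quantile normalisation Apoa1 was -0.09 for the maternal and 0.00 for the fetal Ppara knockout, and Apoe 0.00 for the maternal Cpt2 knockout, where it was 0.07 with presumed litter as a random block. Without the presumed littermates of KODam_HetFetus, Apoa5, Apoc2 and Apoe were 0.29, 0.02 and 0.00 for the maternal and Apoc3 -0.37 for the fetal Ppara knockout, and Apoe and Mttp 0.02 and 0.25 for the difference. Apoc3 was -0.03 for the fetal knockout without those of KODam_KOFetus. Without those of FloxDam_FloxFetus, Apoa2, Apob, Apoe and Mttp were -0.02, 0.26, 0.36 and 0.08 for the maternal Cpt2 knockout, Apob -0.44 for the difference and Apoc1 0.01 for the control groups. Without the libraries with neighbouring-tissue markers, Apoa1 and Apoa4 were 0.07 and 1.07 for both Ppara knockouts, Apoa1, Apoa2 and Apoe -0.02, -0.01 and 0.22 for the maternal Cpt2 knockout, Apoa1, Apoa4 and Apob 0.16, 1.85 and -0.27 for the difference, and Apoa1 and Apoc3 -0.01 and -0.69 for the control groups. Without the libraries with intestine markers, Apoa5 was 0.69 for the maternal knockout, Apoa1 and Apoa4 0.08 and 1.43 for both, Apoa4 and Apob 1.87 and -0.02 for the difference, and Apoa1 and Apoc3 -0.05 and -0.08 for the control groups.

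Leaving out 1 library at a time also turned signs. The ranges were -0.06 to 0.08 (Apoa1), -0.88 to 0.37 (Apoa5) and -0.13 to 0.01 (Apoc2) for the maternal Ppara knockout. They were -0.07 to 0.03 (Apoa1) and -0.28 to 0.05 (Apoc1) for the fetal, and -0.07 to 0.05 (Apoa1) and -1.72 to 0.46 (Apoa4) for both. For the maternal Cpt2 knockout they were -0.08 to 0.37 (Apoa1) and -0.25 to 0.16 (Apoe). For the difference they were -0.37 to 0.09 (Apoa1), -1.27 to 0.91 (Apoa4), 0.00 to 0.14 (Apoc2) and -0.23 to 0.23 (Mttp), and for the control groups -0.06 to 0.12 (Apoa1), -0.05 to 0.79 (Apoc3) and -0.06 to 0.40 (Mttp). Unknown depth limits what can be said of the low values of Apoa4, Apoa5 and Apoc3.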
